A study of Mus musculus with 10 samples.

Results

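The genes that carry fatty acids into the brown adipocyte and bind them there were followed in poly A RNA of iBAT, the interscapular brown adipose tissue, which is the main thermogenic fat of the mouse. The set was chosen by gene symbol and held 10 of the 54347 gene records of the count table: Lpl, Gpihbp1, Lmf1 and Angptl4 of the lipoprotein lipase system, the fatty acid transporters Cd36, Slc27a1 and Slc27a2, and the fatty acid binding proteins Fabp3, Fabp4 and Fabp5. All 10 had enough counts to be tested. The study compared 5 ΔGm15551 mice with 5 wild type littermates on the C57BL/6N background, to learn what the loss of the lncRNA gene Gm15551 does to the tissue in the cold. The mice of both groups were 12 weeks old and had been housed alone at 4 °C for 24 h before dissection, and a group without cold exposure was not analysed here. The ΔGm15551 allele is a CRISPR/Cas9 deletion that includes exon 1 of Gm15551, and carriers had been backcrossed to wild type animals. It is present in every cell of the body and not in fat alone. The methods give a chow diet for the mice used in these transcriptomes.

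Cold-exposed brown fat burns fatty acids and takes much of its supply from the triglyceride-rich lipoproteins of the blood. Lipoprotein lipase is made by the adipocyte, folded in the endoplasmic reticulum with the help of LMF1, and carried by GPIHBP1 to the inner surface of the capillary, where it releases fatty acids from lipoproteins. ANGPTL4 inactivates the lipase. The freed fatty acids enter the adipocyte with the help of the membrane protein CD36 and of fatty acid transport proteins such as SLC27A1 and SLC27A2, which also attach coenzyme A, and small binding proteins of the FABP family hold them in the cytosol.

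The 3 FABP genes are relatives, so a read could in principle fit more than 1 of them. The first 120 bases of each coding region, read from the GENCODE M21 transcripts on GRCm38, are shown to let the likeness be seen, with the bases that all 3 share in a common alignment in capitals.
Fabp3: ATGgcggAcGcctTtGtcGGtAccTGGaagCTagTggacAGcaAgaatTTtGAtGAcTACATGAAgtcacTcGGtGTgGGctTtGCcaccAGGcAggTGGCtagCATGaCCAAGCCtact
Fabp4: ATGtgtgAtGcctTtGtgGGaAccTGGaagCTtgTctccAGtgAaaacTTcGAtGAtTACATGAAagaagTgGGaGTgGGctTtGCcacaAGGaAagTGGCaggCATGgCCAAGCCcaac
Fabp5: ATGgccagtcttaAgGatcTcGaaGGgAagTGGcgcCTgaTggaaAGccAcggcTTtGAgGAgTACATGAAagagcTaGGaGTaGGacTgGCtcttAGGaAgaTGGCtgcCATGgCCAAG
The coding regions run over 402 bases in Fabp3 (chr4:130308778-130315225, plus strand), 399 bases in Fabp4 (chr3:10204520-10208511, minus strand) and 408 bases in Fabp5 (chr3:10012640-10016120, plus strand). Over the whole coding alignment Fabp3 and Fabp4 were identical at 63.9% of the aligned bases, Fabp4 and Fabp5 at 60.9% and Fabp3 and Fabp5 at 56.0%. The longest identical stretch was 14 bases, and no run of 31 bases occurred in more than 1 of the 3 coding regions. Pseudogenes are a closer match than the family members. Of the 31-base runs of Fabp3 transcripts, 50.1% also occur in other gene records, above all in Fabp3-ps1, which received 48 counts over the 10 mice against 258022 for Fabp3. Zcchc17 and Gm10570 shared runs at 51 and 50 positions, against 279 for Fabp3-ps1, and received 2669 and 390 counts. For Fabp5 the share was 9.27%, and each of the 5 records that share most of them received at most 1 count. Mcur1 shared runs with Fabp5 at 8 positions and received 35141 counts, against 9870 for Fabp5. For Slc27a2 the share was 10.3%, all of it with Gm26697, for which no counts were used here. How reads were split between such records was not tested. Cd36 and Gpihbp1 shared no such run.

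The libraries held 9680976 to 15771170 counts per mouse. Gm15551 had 0 counts in each ΔGm15551 mouse and 1, 2, 6, 7 and 0 counts in wild type mice 2, 3, 5, 6 and 7, so that this check of the labels rests on 16 counts. The markers of the tissue were present, with summed levels of 11935 to 16576 CPM (the usual depth-normalised read count, relative to the library total and scaled between libraries by TMM) for 8 brown adipocyte genes, and wild type mouse 7 had the lowest sum. Endothelial markers summed to 1143 to 1971 CPM in ΔGm15551 and 1091 to 1918 CPM in wild type, and macrophage markers to 39.6 to 70.0 and 42.8 to 75.8 CPM. Red blood cell markers summed to 934 to 1751 and 614 to 2544 CPM. Skeletal muscle markers ran from 1.28 to 1949 and from 1.497 to 3164 CPM, with 7 of the 10 at 0 counts in at least 1 mouse. No gene of these lists passed the test between the genotypes. The libraries also differed in how far genes rich in G and C were over-represented, given here as the slope of log2 CPM per 10 percentage points of GC. This slope was highest in ΔGm15551 mouse 5 (0.29) and lowest in wild type mouse 3 (-0.27), and the other mice lay between -0.06 and 0.09. It did not separate the genotypes (exact permutation test, two-sided, p = 0.460). Finally, wild type mice 5, 6 and 7 have numbers of a higher series than the other 7 mice, so that a difference between the series cannot be told apart from genotype in comparisons that rest on them.

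The 10 genes together took 2.44% to 3.09% of all counts in ΔGm15551 mice and 2.78% to 3.07% in wild type mice. Among 12277 protein-coding genes ranked by CPM, Fabp4 stood at place 9, Lpl at 11, Cd36 at 30 and Fabp3 at 38, so that the lipase, the main fatty acid receptor and 2 binding proteins were among the most abundant messages of the cold tissue. The fatty acid transport proteins Slc27a2 and Slc27a1 stood at places 219 and 391, Angptl4 at 1065, Gpihbp1 at 1154, Fabp5 at 1779 and Lmf1 at 3115. Places by CPM favour long transcripts, and levels of different genes were therefore compared as RPKM (CPM per kilobase of length), with the union of all annotated exons as the length.

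On the RPKM scale Fabp4 led with a median of 2758 over the 10 mice (lowest 2401, highest 3229), ahead of Fabp3 with 2425 (1823 to 2971). Fabp4 lay above Fabp3 in 9 of 10 mice, by 1.16-fold on average. Lpl followed with 1071 (819 to 1318) and Cd36 with 655 (475 to 791). Both heads of the order are intracellular binding proteins, and the lipase and the receptor come after them. Slc27a2 had 131 RPKM (75.3 to 182), Slc27a1 47.6 (34.3 to 65.0) and Gpihbp1 39.3 (27.2 to 67.7). Angptl4 had 33.9 (22.2 to 48.8), Fabp5 18.8 (15.6 to 30.1) and Lmf1 3.20 (2.75 to 4.08). Of the 9 neighbouring pairs in this order, 8 differed within mice (exact sign-flip permutation test, two-sided, Benjamini-Hochberg over the 9 pairs, adjusted p of 0.00293 to 0.0396). Slc27a1 and Gpihbp1 did not pass (adjusted p = 0.168), with Slc27a1 higher in 7 of 10 mice.

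The order at the top depended on the length that was used. The annotation of Fabp4 includes a transcript with a retained intron, which brings the union to 4489 bases against 896 for its coding transcript. With the median length of the coding transcripts Fabp4 was at 13818 RPKM, 5.16-fold above Lpl (2726 RPKM), and Lpl and Fabp3 (2425 RPKM) no longer passed as different (adjusted p = 0.0957, the same permutation test). Cd36 then had 874 RPKM, Slc27a2 224, Slc27a1 165, Gpihbp1 122, Fabp5 68.0, Angptl4 36.3 and Lmf1 23.4. Lpl and Fabp3, and Fabp5 and Angptl4, had changed places against the order by union. With the longest annotated transcript as the length, Fabp4 was 1.09-fold above Lpl, in 6 of 10 mice, which did not pass (adjusted p = 0.129, the same permutation test), nor did Lpl against Fabp3 (permutation adjusted p = 0.108), and 7 of the 9 pairs differed. Fabp4 had the highest mean and Lmf1 the lowest with all 3 lengths.

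**Figure D1:**
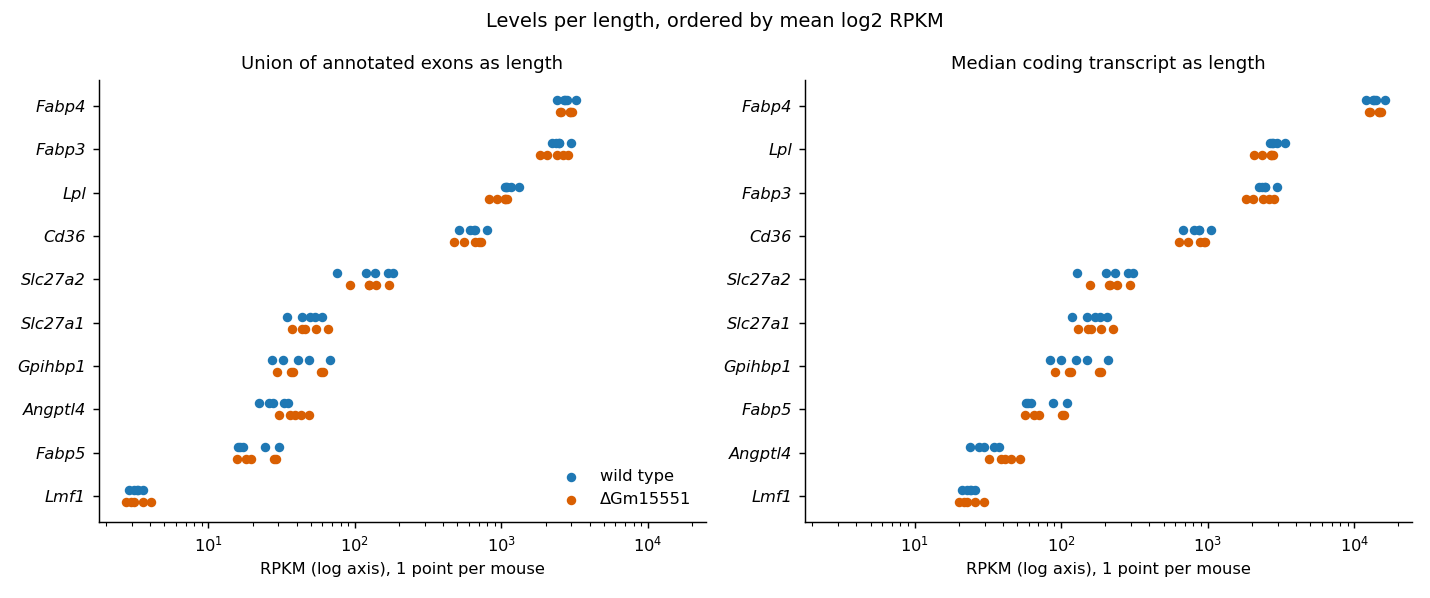
Level of each gene in RPKM on a log axis, 1 point per mouse (blue, wild type; orange, ΔGm15551), with the union of annotated exons (left) or the median coding transcript (right) as the length. Fabp4 is at the top of both panels, near 2758 and 13818 RPKM in the median, and Lmf1 at the bottom.

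The genotypes were compared by edgeR's quasi-likelihood test over 13733 genes with Benjamini-Hochberg adjustment, with a gene called where the adjusted p was under 0.05. None of the 10 genes was called, and neither was any other gene tested (0%). At an unadjusted p under 0.05 there was 1 of the 10, Angptl4, where it was higher in ΔGm15551, beside 1.6% of all genes (220 of 13733), 0.961% higher and 0.641% lower in ΔGm15551. The DESeq2 Wald test and limma-voom also called 0 genes, with 322 and 238 genes at an unadjusted p under 0.05. The 95% confidence interval of the log2 fold change (log2FC, ΔGm15551 minus wild type) did not reach -1 or 1, that is a 2-fold fall or rise, for any of the 10. The median log2FC of the 10 genes was 0.024 and that of all genes tested -0.0010.

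**Figure D2:**
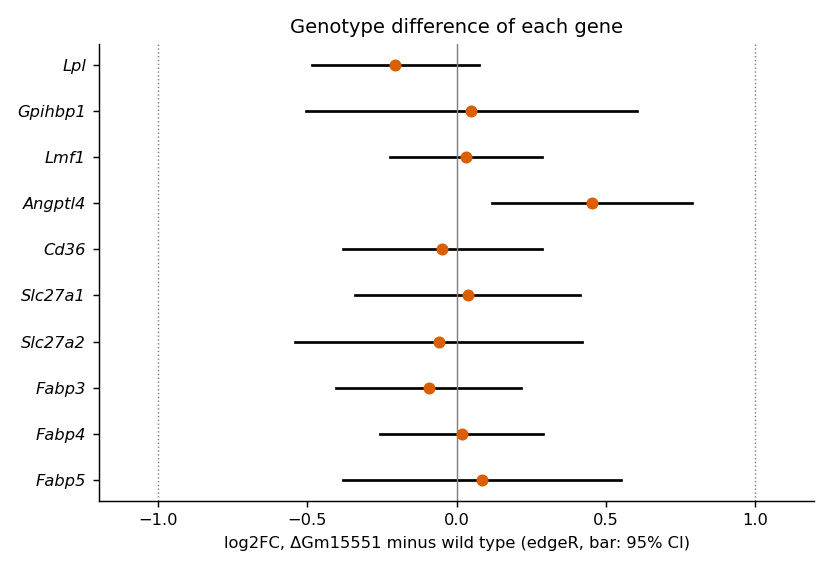
log2FC of the 10 genes, ΔGm15551 minus wild type, with the 95% confidence interval of the edgeR fit as a bar and a 2-fold change as dotted lines. All intervals stay within the dotted lines, and that of Angptl4 (0.12 to 0.79) is the only interval that does not include 0.

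Lpl, the lipase itself, lies on chromosome 8 (68880491 to 68907448, plus strand, GRCm38) with 10 exons in its coding transcript. Its level in ΔGm15551 mice 1, 2, 4, 5 and 7 was 11420.4, 11050.3, 11121, 8585 and 9694 CPM. In wild type mice 2, 3, 5, 6 and 7 it was 11031, 13811, 11473, 12159.9 and 11316 CPM. The lowest 2 values were those of ΔGm15551 mice 5 and 7 and the highest that of wild type mouse 3, while the other 7 mice lay close together and the groups overlapped. The means were 10374 ± 1201 CPM (SD, n = 5) in ΔGm15551 and 11958 ± 1116 CPM (SD, n = 5) in wild type. The log2FC was -0.21 (SE 0.13, 95% confidence interval -0.48 to 0.07, unadjusted p = 0.137).

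Gpihbp1, the endothelial protein that holds the lipase in the capillary, lies on chromosome 15 (75596628 to 75599481, plus strand). It was at 150.1, 74.5, 97.0, 155 and 93.3 CPM in ΔGm15551 mice 1, 2, 4, 5 and 7 and at 123, 69.4, 104, 81.8 and 173 CPM in wild type mice 2, 3, 5, 6 and 7. Each group held mice near both ends of the range, and the highest mouse had 2.49 times the level of the lowest. The spread between mice of a group, as edgeR's biological coefficient of variation, was 29.3%, above that of 85.3% of the genes tested. The means were 114 ± 36.2 and 110.2 ± 40.7 CPM (SD, n = 5 each) and the log2FC was 0.05 (SE 0.26, interval -0.51 to 0.61). A level in ΔGm15551 from 0.704 to 1.52 times that of wild type could thus not be told from no change.

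Lmf1, the maturation factor of the lipase in the endoplasmic reticulum, lies on chromosome 17 (25579085 to 25662826, plus strand). Its level was 37.3, 42.5, 40.5, 55.4 and 48.3 CPM in ΔGm15551 and 48.3, 42.1, 44.6, 45.0 and 39.2 CPM in wild type, in the same order of mice as above. The wild type values fell inside the ΔGm15551 range. It varied little between mice (15.1%), and its log2FC was 0.03 (SE 0.12, interval -0.22 to 0.28).

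Angptl4, the inhibitor of the lipase, stood out from the other members in the size of its difference. It lies on chromosome 17 (33773750 to 33781830, minus strand) with 7 exons. Its level was 151, 137, 128, 173 and 107 CPM in ΔGm15551 mice 1, 2, 4, 5 and 7 and 124, 78.5, 91.2, 97.6 and 116 CPM in wild type mice 2, 3, 5, 6 and 7. In 4 of 5 ΔGm15551 mice it was above the highest wild type value, and ΔGm15551 mouse 7 lay inside the wild type range. The means were 139 ± 24.8 and 102 ± 18.6 CPM (SD, n = 5 each), a 1.37-fold higher level in ΔGm15551. The log2FC was 0.45 (SE 0.16, interval 0.12 to 0.79) with an unadjusted p of 0.0117, which was place 35 among all genes by p, and edgeR's adjusted p was 0.99998, so the difference did not pass. The exact permutation test on its log2 CPM alone gave an unadjusted p = 0.0317 (two-sided, 252 assignments), the smallest of the 10 members, where Lpl had 0.0635 and the others 0.468 to 0.929. Without ΔGm15551 mouse 5 and without wild type mouse 3, the libraries at the ends of the GC slope, the log2FC was 0.36 (unadjusted p = 0.0367) and 0.37 (unadjusted p = 0.0312). With wild type mice 5, 6 and 7 left out, whose numbers are of the higher series, it was 0.46 (unadjusted p = 0.0730).

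**Figure D3:**
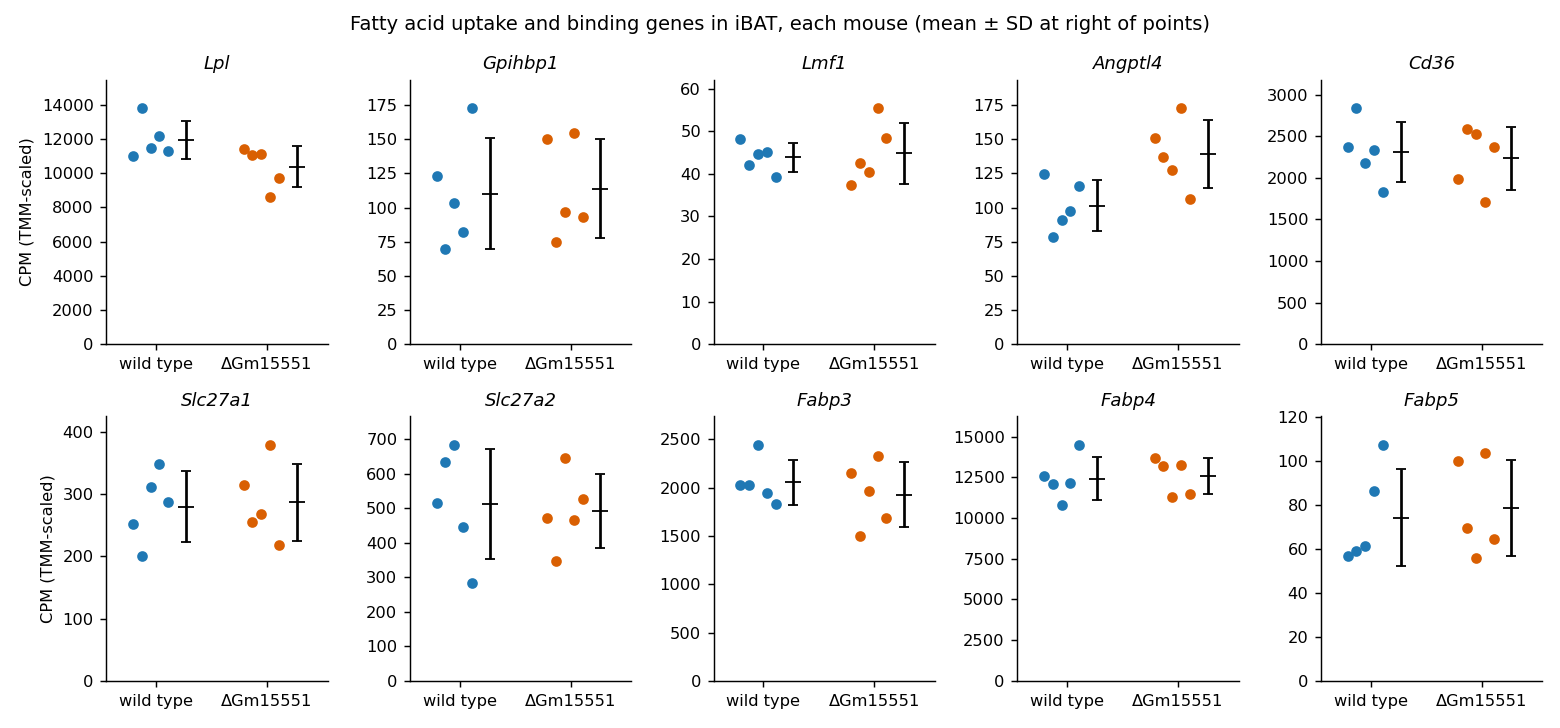
Level of each gene in TMM-scaled CPM in every mouse (blue, wild type; orange, ΔGm15551), with the mean and SD of the 5 mice as a black bar at the right of the points and axes that start at 0. The groups overlap in every panel, and for Angptl4 4 of the 5 ΔGm15551 points lie above all wild type points.

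Cd36, the fatty acid receptor of the cell surface, lies on chromosome 5 (17781690 to 17888801, minus strand) with 15 exons. It was at 1984, 2589, 2529.8, 1705 and 2370.4 CPM in the ΔGm15551 mice and at 2366, 2839, 2178, 2339.7 and 1833 CPM in the wild type mice. The lowest value belonged to ΔGm15551 mouse 5, with the highest GC slope, and the highest to wild type mouse 3, with the lowest. The means were 2236 ± 379 and 2311 ± 363 CPM (SD, n = 5 each) and the log2FC was -0.05 (SE 0.15, interval -0.38 to 0.29).

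Slc27a1, which encodes the fatty acid transport protein FATP1, lies on chromosome 8 (71568882 to 71587302, plus strand). Its values were 315, 255, 268, 379 and 219 CPM in ΔGm15551 and 252, 200.004, 311, 348 and 288 CPM in wild type, with a log2FC of 0.04 (SE 0.17, interval -0.34 to 0.41). Slc27a2, which encodes FATP2, a very long chain acyl-CoA synthetase, lies on chromosome 2 (126552407 to 126588243, plus strand). It was the more abundant of the pair, at 470.0, 348, 645, 466 and 526 CPM in ΔGm15551 and 516, 632, 683, 446 and 283 CPM in wild type. Wild type mouse 7 was the lowest of all, and 2.42-fold below wild type mouse 5. The log2FC was -0.06 (SE 0.22, interval -0.54 to 0.42), and its coefficient of variation between mice was 25.7%. On the RPKM scale Slc27a2 lay above Slc27a1 in 10 of 10 mice by 2.71-fold, and with the coding length in 7 of 10 mice by 1.34-fold.

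Of the binding proteins, Fabp3, the form of heart and muscle, lies on chromosome 4 (130308595 to 130315463, plus strand). It was at 2157, 1500.0, 1967, 2325 and 1684 CPM in ΔGm15551 mice 1, 2, 4, 5 and 7 and at 2025, 2027, 2445, 1947 and 1830.2 CPM in wild type mice 2, 3, 5, 6 and 7. Ordered from the lowest to the highest sum of the skeletal muscle markers, Fabp3 was at 1500.0, 1684, 2325, 2157 and 1967 CPM in ΔGm15551 (sums of 1.28, 1.72, 77.7, 858 and 1949 CPM). In wild type it was at 1947, 2027, 2025, 2445 and 1830.2 CPM (sums of 1.497, 2.74, 58.4, 292 and 3164 CPM). In ΔGm15551 the lowest 2 Fabp3 values were those of the 2 mice with the least muscle marker RNA. In wild type the lowest Fabp3 value was that of the mouse with the most. The highest Fabp3 of each group was not in the mouse with the most muscle marker RNA, nor in that with the least. Whether muscle RNA adds to the Fabp3 level was not tested. The log2FC was -0.09 (SE 0.14, interval -0.40 to 0.22), and -0.10 with the muscle score as a covariate.

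Fabp4, the adipocyte form also known as aP2, lies on chromosome 3 (10204088 to 10208576, minus strand), 116.459 Mb from Gm15551 on the same chromosome. Its values were 13655, 13183, 11287, 13248 and 11471 CPM in ΔGm15551 and 12589, 12072, 10776, 12173 and 14494 CPM in wild type. It was the steadiest of the 10, with a 1.34-fold range over all mice and a coefficient of variation of 14.8%. The means of 12569 ± 1103 and 12421 ± 1343 CPM (SD, n = 5 each) differed by a log2FC of 0.02 (SE 0.13, interval -0.26 to 0.29). The interval bounds the level in ΔGm15551 between 0.837 and 1.22 times that of wild type.

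Fabp5, the epidermal form, is the neighbour of Fabp4 (10012548 to 10016607 of chromosome 3, plus strand). It was far lower, at 99.9, 69.8, 55.7, 104 and 64.5 CPM in ΔGm15551 and 57.0, 58.9, 61.3, 86.4 and 108 CPM in wild type. In each group 2 mice lay apart above the other 3, and the log2FC was 0.09 (SE 0.22, interval -0.38 to 0.55). In bulk tissue, fewer cells of a type and less RNA per cell cannot be told apart, for this and for all genes described here.

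Ratios within a library do not depend on the scaling between libraries, and 4 were compared by exact permutation over the 252 assignments of the 10 mice (two-sided, Benjamini-Hochberg over the 4). The log2 ratio of Angptl4 to Lpl, inhibitor to enzyme, was -6.24, -6.33, -6.44, -5.63 and -6.51 in ΔGm15551 mice 1, 2, 4, 5 and 7. In wild type mice 2, 3, 5, 6 and 7 it was -6.47, -7.46, -6.97, -6.96 and -6.61. The ratio was above all wild type values in 4 of 5 ΔGm15551 mice. Its mean was -6.23 ± 0.35 against -6.89 ± 0.38 (SD, n = 5 each), a difference of 0.66 or 1.58-fold (exact permutation p = 0.0159, adjusted p = 0.0635), which did not pass. It passed without wild type mouse 2 (0.77, permutation adjusted p = 0.0317) and after a correction of each library for GC content and length (0.61, permutation adjusted p = 0.0317). Without ΔGm15551 mouse 5 the difference was 0.51 (permutation adjusted p = 0.190) and without wild type mouse 3 it was 0.52 (permutation adjusted p = 0.127).

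The other 3 ratios were close between the genotypes. Gpihbp1 relative to the mean of the 10 endothelial markers differed by -0.07 on the log2 scale (exact permutation p = 0.611). Fabp3 relative to Fabp4 differed by -0.12 (exact permutation p = 0.492) and Fabp5 relative to Fabp4 by 0.07 (exact permutation p = 0.683). The adjusted p of these 3 was 0.683.

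**Figure D4:**
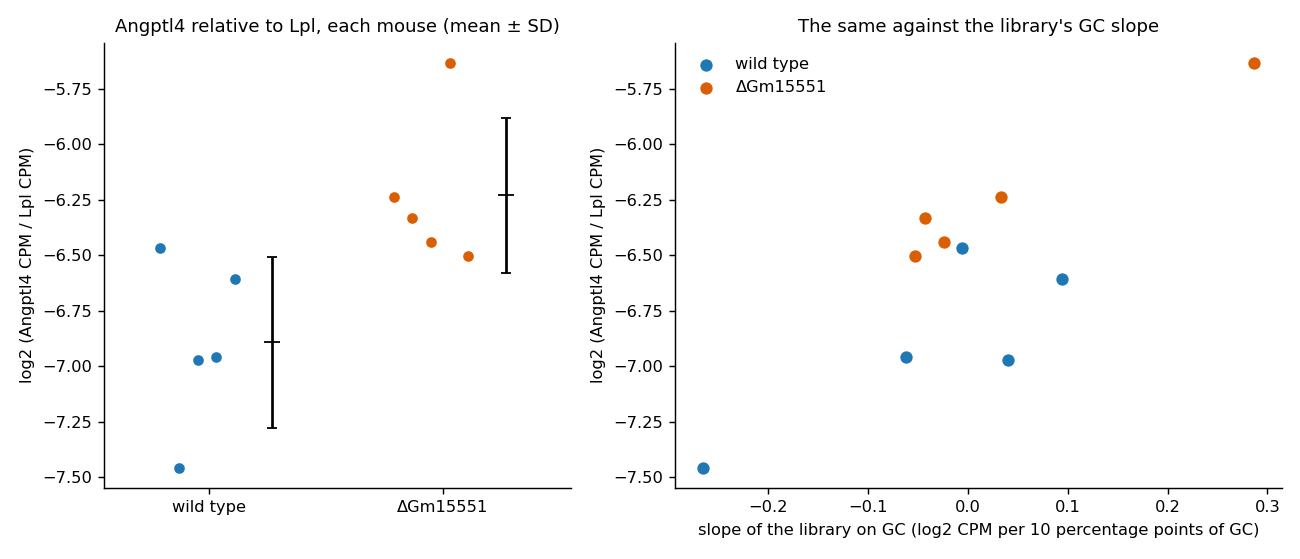
log2 ratio of Angptl4 CPM to Lpl CPM in each mouse (blue, wild type; orange, ΔGm15551), by genotype with mean and SD (left) and against the library's slope on GC content in log2 CPM per 10 percentage points (right). The ΔGm15551 mean is 0.66 higher, and the highest and the lowest ratio belong to the libraries with slopes of 0.29 and -0.27.

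Several genes moved with the GC slope of the library, a relation examined after the data had been seen. Of 11 relations (the 10 genes and the ratio of Angptl4 to Lpl, permutation test with 100000 resamples over 10 mice, Benjamini-Hochberg over the 11), 6 passed by Pearson's r, which were 5 genes and the ratio. Of all genes tested, 13.4% were at least as strongly correlated with the slope as Angptl4, the weakest of the 5, and 1.42% as Cd36, the strongest. Cd36, with 38.4% GC, fell as the slope rose (r = -0.90, permutation adjusted p = 0.00121, rho = -0.83, permutation adjusted p = 0.0254). Gpihbp1, with 53.5% GC, rose with it (r = 0.79, permutation adjusted p = 0.00671, rho = 0.92, permutation adjusted p = 0.00484). Both relations kept their size without the 2 mice with the most extreme slopes (r = -0.86 and 0.87 over 8 mice). For Lpl (r = -0.80, rho = -0.39), Angptl4 (r = 0.74, rho = 0.53), Slc27a1 (r = 0.77, rho = 0.58) and the ratio (r = 0.82, rho = 0.45) the permutation adjusted p of r was 0.0298, 0.0295, 0.0295 and 0.0295 and that of rho 0.323 for Lpl and 0.301 for the others. Without those 2 mice their r was 0.24, 0.07, 0.28 and -0.02, so these 4 relations rest on ΔGm15551 mouse 5 and wild type mouse 3. Of the 5 genes that did not pass, Slc27a2 (52.1% GC) had r = -0.32. Fabp4 (40.3%), Fabp5 (45.6%), Fabp3 (53.9%) and Lmf1 (58.4%) had r of 0.37, 0.62, 0.36 and 0.40. The direction of r thus did not follow the GC content of the gene throughout. After the GC and length correction the log2FC of Angptl4 was 0.44 (unadjusted p = 0.0157).

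The 10 genes gave 45 pairs over the 10 mice, of which 2 were called (Pearson's r of log2 CPM, permutation test with 100000 resamples, two-sided, Benjamini-Hochberg over the 45 pairs) and 10 reached an unadjusted p under 0.05. Of all pairs of genes tested, 2.51% had an absolute r at least as large as the weaker of the 2. The mice with more Gpihbp1 had less Cd36 (r = -0.90, permutation p = 0.00048, adjusted p = 0.0216, rho = -0.88, permutation p = 0.00155, adjusted p = 0.0697). Wild type mouse 3 combined the lowest Gpihbp1 (69.4 CPM) with the highest Cd36 (2839 CPM). The mice with more Slc27a2 had less Fabp4 (r = -0.85, permutation p = 0.00178, adjusted p = 0.0400, rho = -0.84, permutation p = 0.00356, adjusted p = 0.0801). Here wild type mouse 7 had the least Slc27a2 (283 CPM) and the most Fabp4 (14494 CPM).

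Both relations kept their sign but not their call under the other settings tried, fits with single mice left out aside. Without the 2 mice farthest from the median of the first-named gene, r was -0.84 for Gpihbp1 and Cd36 (permutation adjusted p = 0.221) and -0.77 for Slc27a2 and Fabp4 (permutation adjusted p = 0.358). In the 7 mice of the lower number series it was -0.91 (exact permutation adjusted p = 0.0804) and -0.72 (exact permutation adjusted p = 0.245). After the GC and length correction r was -0.79 (permutation adjusted p = 0.125) and -0.63 (permutation adjusted p = 0.260). With single mice left out r ran from -0.94 to -0.87 for the first pair, weakest without wild type mouse 3, and from -0.89 to -0.76 for the second, weakest without wild type mouse 7. Since Gpihbp1 and Cd36 each moved with the GC slope of the library, that slope was shared by the pair, and its part in the relation beyond the corrected value was not tested.

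The members were also set against the cell types of the tissue. Of 50 relations between the 10 genes and 5 marker scores (mean log2 CPM of a list; skeletal muscle was left out because its mice fell into separate clusters), 1 was called. Gpihbp1 rose with the endothelial score (r = 0.93, permutation p = 0.00016, adjusted p = 0.0080, rho = 0.88, permutation p = 0.00147, adjusted p = 0.0735). Both were highest in wild type mouse 7 and ΔGm15551 mice 1 and 5. Without the 2 mice farthest from the median of the score r was 0.90, and among the residuals from the genotype means 0.94 (permutation adjusted p = 0.0417). In the 7 mice of the lower number series it was 0.93, and after the GC and length correction 0.93 (permutation adjusted p = 0.0035). Of all genes tested, 3.82% were as strongly correlated with that score. Cd36 had r = -0.80 with it, which did not pass (permutation adjusted p = 0.0881). After the GC and length correction 4 of the 50 relations were called in place of 1. Beside Gpihbp1 with the endothelial score these were Cd36 with the endothelial score (r = -0.84, permutation adjusted p = 0.0406), Cd36 with the brown adipocyte score (r = 0.84, permutation adjusted p = 0.0406; 0.61 before the correction) and Gpihbp1 with the brown adipocyte score (r = -0.77, permutation adjusted p = 0.0370; -0.68 before). Among all genes, after the same correction, 2.93% were as strongly correlated with the endothelial score as Gpihbp1 and 14.1% as Cd36, and with the brown adipocyte score 7.25% as Cd36 and 15.9% as Gpihbp1. Before the correction Cd36 had rho = 0.43 with the brown adipocyte score (permutation adjusted p = 0.539) and rho = -0.66 with the endothelial score (permutation adjusted p = 0.364). Without the 2 mice farthest from the median of the score, its uncorrected r was 0.38 and -0.76.

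**Figure D5:**
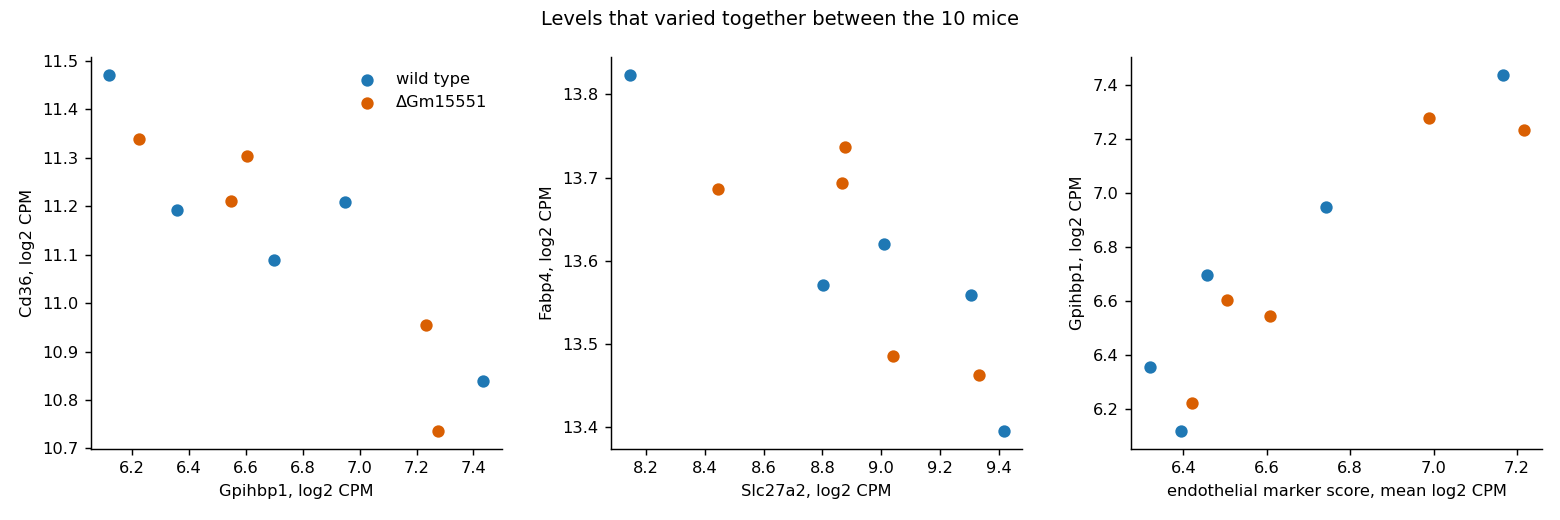
Each point is 1 mouse (blue, wild type; orange, ΔGm15551), with log2 CPM of Cd36 against Gpihbp1 (left), of Fabp4 against Slc27a2 (middle) and of Gpihbp1 against the mean log2 CPM of 10 endothelial markers (right). The points fall in the first panel (r = -0.90) and the second (r = -0.85) and rise in the third (r = 0.93), with both genotypes spread along each trend.

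The genes whose log2 CPM was most like that of a member over the 10 mice were listed as a description. They were Mef2a (r = 0.93) for Lpl, Ppp1r12c (r = 0.99) and Atp5j2 (r = 0.99) for Gpihbp1, and Chst14 (r = 0.95) and Gm40617 (r = 0.93) for Lmf1. For Angptl4 they were Rdm1 (r = 0.93) and Pcbp4 (r = 0.93) and for Cd36 Rab6a (r = 0.97) and Tmtc3 (r = 0.97). With 13733 genes and 10 mice, values of this size are the top of a long list, and the genes were measured in the same libraries at the same depth. For Slc27a1 they were Slc25a10 (r = 0.90) and Tbcc (r = 0.89) and for Slc27a2 Smad3 (r = 0.95) and Sdhaf4 (r = 0.94). For Fabp3 they were Zbtb7c (r = 0.93) and Kif1a (r = 0.93), for Fabp4 S100a10 (r = 0.99) and Thsd7a (r = 0.97), and for Fabp5 Bcar1 (r = 0.97) and Gm43830 (r = 0.94).

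A wider list of 44 genes of the same pathway, with the other members of the Slc27, Fabp and Angptl families, apolipoproteins, lipases and their processing enzymes, lipoprotein receptors, caveolar proteins and acyl-CoA synthetases, held 31 genes that could be tested. None was called and none reached an unadjusted p under 0.05, beside 0% and 1.6% of all genes. The log2FC ran from -0.21 for Pcsk6, a proprotein convertase, to 0.42 for Slc27a3, a further fatty acid transport protein family member (unadjusted p = 0.0971, the smallest of the list). It was above 0 for 15 of the 31, with a median of -0.0015, and 30 of the 31 were bounded within a 2-fold change. The most abundant of the list on the RPKM scale were Dbi, the acyl-CoA binding protein, with 639 RPKM, the acyl-CoA synthetases Acsl1 with 269 and Acsl5 with 214, the apolipoprotein Apoe with 205 and the caveolin Cav1 with 159. Their log2FC was 0.01 (SE 0.16), -0.06 (SE 0.23), -0.08 (SE 0.25), -0.02 (SE 0.23) and -0.06 (SE 0.14).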

How the data were processed

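Poly A RNA of iBAT was sequenced by the study in paired-end reads. Per the labels and methods, reads were filtered with cutadapt and quantified with Salmon against GENCODE M22 on GRCm38 (or M22 joined with RNAcentral), in versions not given in the sources used here. The deposited values are estimated counts per gene, rounded to whole numbers by the authors, unscaled. Whether counting used strand is not stated.

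The main test was that of edgeR 4.0.16 in R 4.3.3 (filterByExpr, minimum count 10 and minimum total 15, which left 13732 genes plus Gm15551; TMM; robust quasi-likelihood fit with genotype as the only term). log2 CPM had a prior count of 2. DESeq2 1.42.0 and limma 3.58.1 (voom) were alternatives. Permutation tests between the genotypes used all 252 assignments of the mice, those of correlations over 10 mice 100000 resamples, and the sign-flip tests all 1024 sign assignments. Lengths, GC and sequences came from GENCODE M21, where all 10 members were found with the same version, and MAFFT 7.526 aligned the coding regions. The loess correction for GC and length had a span of 0.3. A count of 0 allows up to 3 counts, for counting error only. Genes named beyond the members were Gm15551, the 5 most abundant genes of the wider list and any at an unadjusted p under 0.05, and the 2 genes most like each member, of which 1 is not reported here. Pcsk6 and Slc27a3 were named after their values were seen. The members and lists were chosen with earlier results of these data known. What shared replicate numbers stand for is not stated, and the mice were not treated as paired in the main test. The other settings tried are given in the closing section.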

Additional observations from a re-analysis of the deposited data

Results flagged for a closer look

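Wild type mouse 7 stood apart from the other 4 wild type mice in its brown adipocyte score, the mean log2 CPM of 8 markers, with 9.09 against 9.46 to 9.57 (gap over range 0.770, above Dixon's critical value of 0.71 for 5 samples). It was the only such case among 40 groups of 5 values searched, where chance gives about 2. The same mouse had the lowest Slc27a2 (283 CPM) and the highest Gpihbp1 (173 CPM), Fabp4 (14494 CPM) and Fabp5 (108 CPM) of all 10. It also had the highest sums of skeletal muscle (3164 CPM) and red blood cell markers (2544 CPM). Over the 10 mice, r with the brown adipocyte score was 0.80 for Slc27a2, -0.73 for Fabp4, -0.68 for Gpihbp1 and -0.67 for Fabp5 (permutation adjusted p = 0.0881 for each, which did not pass), with rho of 0.71, -0.76, -0.50 and -0.66 (permutation adjusted p of 0.364, 0.364, 0.463 and 0.364). Without the 2 mice farthest from the median of the score r was 0.68, -0.35, -0.29 and -0.34. After the GC and length correction, over all 10 mice, r was 0.73, -0.16, -0.77 and -0.56 (permutation adjusted p of 0.107, 0.821, 0.0370 and 0.275).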

How the results depend on the processing

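No member and no gene was called under any of 21 alternatives to the edgeR fit (0 called in each, with 169 to 869 genes and 0 to 1 members at an unadjusted p under 0.05). The log2FC of Angptl4 stayed between 0.31 and 0.54 (unadjusted p of 0.00428 to 0.220, adjusted p of 0.835 to 0.99999, under 0.05 unadjusted in 18 of 21), and those of Lpl (-0.26 to -0.15) and Fabp3 (-0.21 to -0.02) kept their sign in all 21. The other 7 members changed sign under some, with the widest ranges for Gpihbp1 (-0.35 to 0.27), Fabp5 (-0.036 to 0.44) and Slc27a1 (-0.086 to 0.35). With single mice left out their log2FC ranged from -0.088 to 0.27 for Gpihbp1, -0.060 to 0.090 for Lmf1, -0.12 to 0.037 for Cd36, -0.086 to 0.13 for Slc27a1, -0.21 to 0.066 for Slc27a2, -0.030 to 0.078 for Fabp4 and -0.036 to 0.26 for Fabp5, and the difference in the ratio of Fabp5 to Fabp4 from -0.021 to 0.16. That of Fabp3 to Fabp4 ranged from -0.22 (without wild type mouse 7) to -0.0094 (without wild type mouse 5) and that of Gpihbp1 to the endothelial list from -0.16 (without wild type mouse 3) to -0.010 (without ΔGm15551 mouse 2), with no call. After the GC and length correction it was -0.053 for Lmf1, 0.028 for Cd36 and -0.054 for Slc27a1. With wild type mice 5, 6 and 7 left out (the higher number series) it was -0.011 for Lmf1, 0.44 for Fabp5 (unadjusted p = 0.103), 0.35 for Slc27a1 (unadjusted p = 0.150), 0.25 for Gpihbp1, -0.22 for Cd36 and -0.22 for Slc27a2, beside 0.46 for Angptl4.

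The replicate number as a block could be fitted only in the 6 mice with the numbers 2, 5 and 7, where the deviations of same-numbered mice correlated at -0.065, 0.054 and -0.39. These values gave no sign of pairing but cannot exclude it, and what the numbers stand for is not stated. With the block the log2FC was -0.35 for Gpihbp1, 0.049 for Cd36, -0.031 for Slc27a1 and 0.31 for Angptl4, with 0 genes called and 398 at an unadjusted p under 0.05. In the same 6 mice without the block it was -0.31 for Gpihbp1 and 0.063 for Cd36.

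Of the 4 ratios, 0 to 1 passed with single mice left out and 1 after the GC and length correction, which was Angptl4 to Lpl. Of the 45 pairs of members, 0 were called with residuals from the genotype means, library totals alone, the GC and length correction or the 7 mice of the lower number series. Without the 2 mice farthest from the median of a pair's first-named gene, which differed between pairs, 1 was called. That was Lpl and Slc27a1, where the mice left out were ΔGm15551 mouse 5 and wild type mouse 3, the libraries at the ends of the GC slope. The r of this pair turned from -0.40 over 10 mice to 0.92 over 8 (permutation adjusted p = 0.00335). With single mice left out the number of pairs called was 0 to 4, with 4 without ΔGm15551 mouse 2, 0 without wild type mouse 3 or 7, and 1 without ΔGm15551 mouse 4 or 5 or wild type mouse 2 or 5. The causes were not tested. The GC and length correction, the 7 mice, the pairs with mice left out and the relations with cell type scores and GC slope were chosen after seeing the data.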
